A study of Mus musculus with 7 samples.

Results

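The genes described here encode the subunits of the receptors for glutamate and for γ-aminobutyric acid (GABA), measured by RNA sequencing in neural crest-derived mouse cells. They were chosen by gene symbol, by a rule that reads no measured value, although the families were picked with earlier results of these data known: the AMPA (Gria), kainate (Grik), NMDA (Grin), delta (Grid) and metabotropic (Grm) glutamate receptor subunits, and the GABA-A (Gabr) and GABA-B (Gabbr) receptor subunits. This gave 47 genes among the 27179 genes of the table. All 47 had a row, and 28 of them reached 1 CPM (a gene's reads as a share of its library's total, in the usual CPM unit) in at least 1 of the 7 libraries.

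In the mice used, Wnt1-Cre;tdTomato animals, Wnt1-driven Cre turns on a tdTomato reporter, a red label, in the neural crest lineage, and every group carries both alleles. Adipose neurospheres were grown from subcutaneous fat cells that spent 10 days in mixed culture and, after sorting for tdTomato, 10 days as purified cells; adipose primary cells were sorted straight from the digested fat. From the small bowel muscle layer came M2 neurospheres, grown by the same 2-stage route, tdTomato-positive cells sorted from mixed spheroids after 10 days, M1 neurospheres, sorted first and then grown for 10 days, primary cells sorted from fresh tissue, and tdTomato-negative cells of the mixed spheroids, which the labels call not neural crest-derived. All cultures contained epidermal growth factor, heparin and basic fibroblast growth factor. Each group is 1 library from about 50000 cells, pooled from 3 mice (2 female and 1 male) aged 1 month.

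AMPA, kainate and NMDA receptors are cation channels opened by glutamate, each built from 4 subunits. Metabotropic glutamate receptors and the GABA-B receptor act through G proteins, and GABA-A receptors are chloride channels built from 5 subunits, commonly of the α, β and γ classes. In the gut, glutamate and GABA receptors are known from enteric neurons, and peripheral glia also carry some of them.

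The libraries held 51885106 to 65301500 reads, and 3 reads, the limit that a count of 0 allows, correspond to 0.0459 to 0.0578 CPM. With 1 library per group no difference has a replicate check. Intervals cover counting error only, since the reads are PCR copies with no molecular identifiers and are not independent. The 6 tdTomato-positive libraries held all 11 glial markers at 1 CPM or more, summing to 1480 to 6034 CPM, and the tdTomato-negative library held 9 of 11, summing to 30.2 CPM. The 12 neuronal markers summed to 842 CPM in adipose neurospheres, 97.5 in adipose primary cells, 3760 in M2, 3798 in tdTomato-positive spheroid cells, 1821 in M1, 2074 in bowel primary cells and 73.6 in tdTomato-negative cells. The number of them at 1 CPM or more was 5 of 12 in adipose neurospheres, 5 in adipose primary cells, 10 in M2, 9 in tdTomato-positive spheroid cells, 11 in M1, 12 in bowel primary cells and 4 in tdTomato-negative cells. Gap43, a growth cone gene on the list picked out after its values were seen, made up much of these sums. Without it they were 722 CPM in adipose neurospheres, 63.9 in adipose primary cells, 843 in M2, 704 in tdTomato-positive spheroid cells, 1040.03 in M1, 1862 in bowel primary cells and 60.9 in tdTomato-negative cells. Bowel primary cells also held smooth muscle markers at 24363 CPM, macrophage markers at 3943 CPM and pancreatic acinar markers at 4.907% of their reads. Adipose primary cells held fibroblast markers at 12052 CPM, macrophage markers at 1586 CPM and lymphocyte markers at 491 CPM. In bulk samples, fewer cells of a type and less RNA per cell cannot be told apart.

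Levels were compared between genes after division by exon length. Over all 47 genes the summed level was 16.9 CPM per kilobase of exon in adipose neurospheres, 20.5 in adipose primary cells, 60.5 in M2 neurospheres, 39.6 in tdTomato-positive spheroid cells, 95.03 in M1 neurospheres, 40.0 in bowel primary cells and 24.3 in tdTomato-negative cells. AMPA and kainate subunits together made up 47.8% of that sum in adipose neurospheres, 66.8% in adipose primary cells, 84.2% in M2, 78.5% in tdTomato-positive spheroid cells, 78.9% in M1, 53.8% in bowel primary cells and 59.4% in tdTomato-negative cells. AMPA subunits summed to 24.5 CPM per kilobase in M2 and 43.2 in M1, and kainate subunits to 26.5 in M2 and 31.7 in M1. NMDA subunits summed to at most 2.05 CPM per kilobase, in M1. Adipose neurospheres had a different order, with GABA-A subunits at 7.02 CPM per kilobase ahead of kainate at 4.06 and AMPA at 4.02. Of the 28 genes that reached 1 CPM, 13 had their highest CPM in M1, 8 in bowel primary cells, 2 each in adipose neurospheres, M2 and tdTomato-negative cells, 1 in adipose primary cells and 0 in tdTomato-positive spheroid cells. These ranks are from CPM as deposited. The TMM scaling factor used for the ratios below was 1.24 in M1 and 0.861 to 1.10 in the others. Scaling thus lowers M1 values against every other library, and genes with close values can change rank. The share of all genes highest in M1 was not computed.

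**Figure D1:**
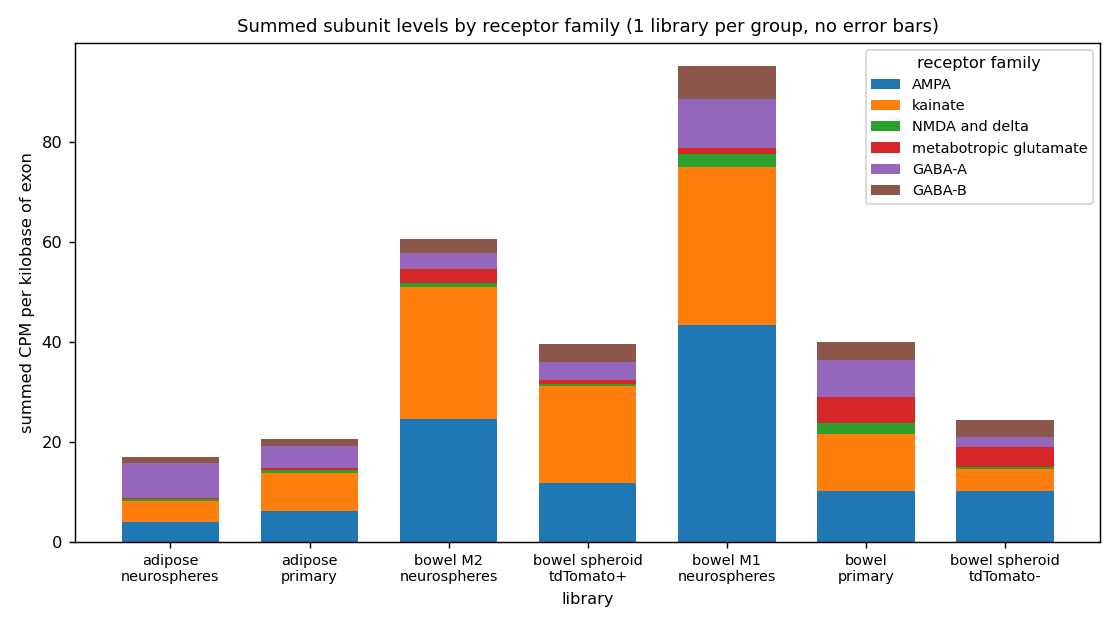
Summed CPM per kilobase of exon (vertical axis) of the 47 subunit genes in each library (horizontal axis), with bars stacked by receptor family and 1 library per bar, without error bars. M1 neurospheres reach 95.03 and adipose neurospheres 16.9; AMPA and kainate subunits fill most of the M1, M2 and tdTomato-positive spheroid bars, and GABA-A subunits are the tallest segment in adipose neurospheres.

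A level of 1 CPM was reached by 4 of 4 AMPA, 5 of 5 kainate, 4 of 7 NMDA, 3 of 8 metabotropic, 10 of 19 GABA-A and 1 of 2 GABA-B subunit genes. Over the whole table, 16461 of 27179 genes reached 1 CPM in a library, beside 28 of the 47 subunit genes, which is a similar share. Only Gria3, Grik2, Grik5 and Gabbr1 reached 1 CPM in all 7 libraries. In all, 19 genes stayed under 1 CPM in every library, among them Grin2a, Grin2b, Grin2c, Grid1, Grm2, Grm3, Grm4, Grm6, Gabra2, Gabra6, Gabrd, Gabrg1, Gabrp, Gabrq, Gabrr1, Gabrr2, Gabrr3 and Gabbr2. The highest value among them was 0.988 CPM, for Gabbr2 in bowel primary cells. Grin2a and Grin2b, the main glutamate-binding NMDA subunits of the forebrain, peaked at 0.959 and 0.983 CPM.

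**Figure D2:**
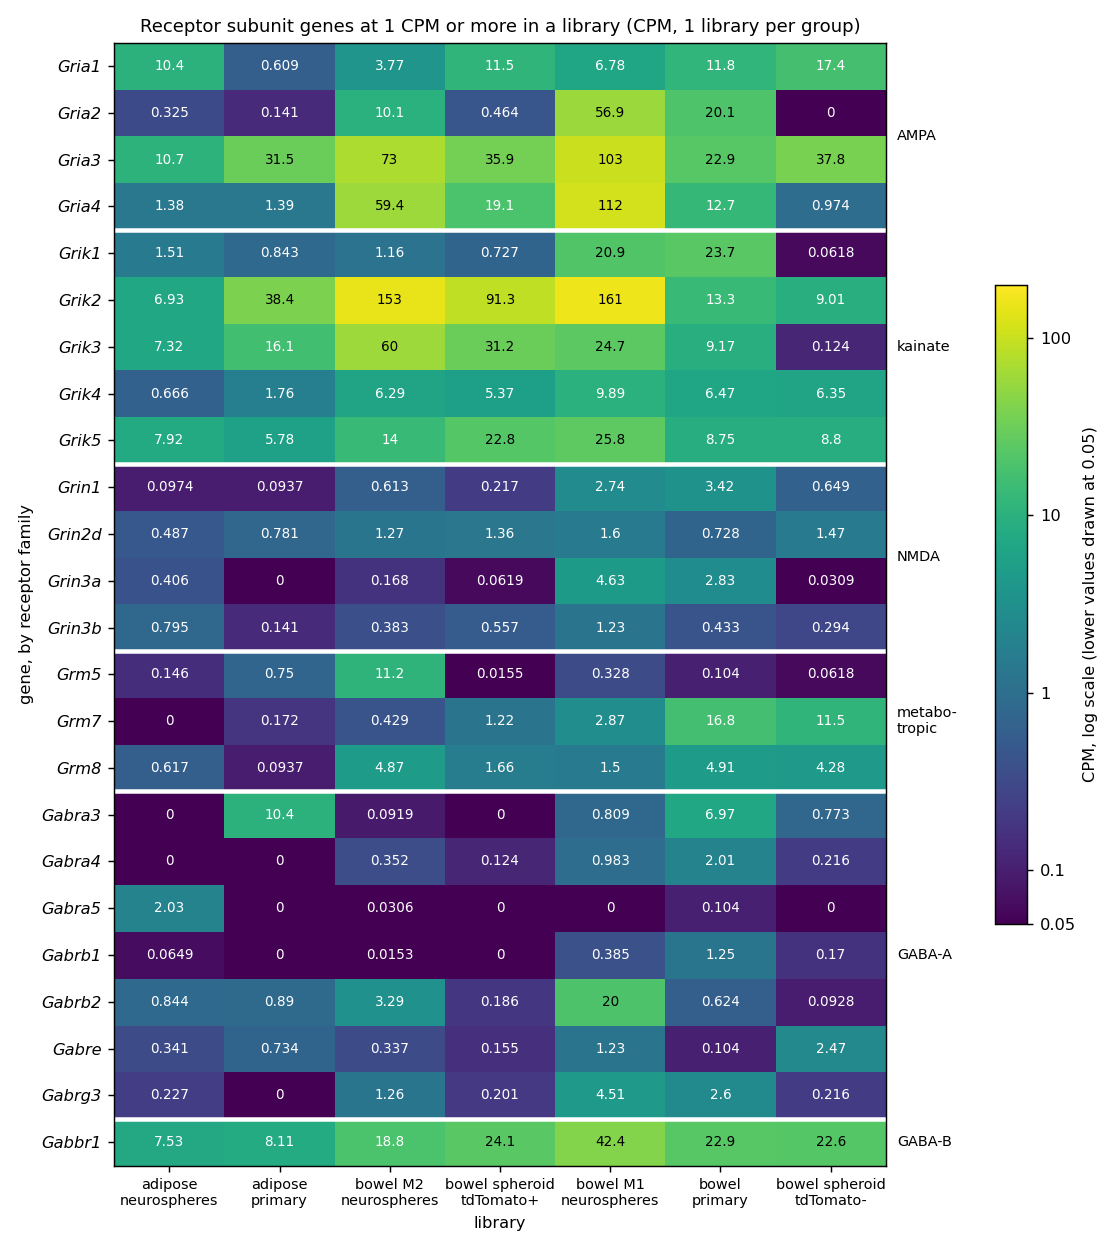
CPM of 24 subunit genes that reached 1 CPM in a library (rows, by receptor family) in each of the 7 libraries (columns), with colour on a log scale and values under 0.05 CPM drawn at 0.05. Grik2 stands at 153 CPM in M2 and 161 CPM in M1, Gabra3 at 10.4 CPM in adipose primary cells with 0 reads in adipose neurospheres, and Grm5 at 11.2 CPM in M2 with under 1 CPM elsewhere.

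In each of 9 comparisons below, a gene was measured where either library reached 1 CPM. It is called higher or lower where scaled reads differed at least 4-fold and the 95% counting interval of the ratio lay wholly beyond 2-fold. Log2 ratios and their intervals are from reads scaled by TMM, with the first-named library on top, while CPM are as deposited. Several comparisons share a library: bowel primary cells enter 4 of them, M2 neurospheres 4, and adipose neurospheres, adipose primary cells, M1 and tdTomato-positive spheroid cells at least 2 each, so their values are given side by side and are not counted as separate evidence.

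Among AMPA receptor subunits, which carry fast excitatory transmission in the brain, Gria4 and Gria2 differed widely between libraries. Gria4 (Entrez 14802; GRCm38 chromosome 9, 4417893 to 4796234) had 1.38 CPM in adipose neurospheres, 1.39 in adipose primary cells, 59.4 in M2, 19.1 in tdTomato-positive spheroid cells, 112 in M1, 12.7 in bowel primary cells and 0.974 in tdTomato-negative cells. The 4 bowel tdTomato-positive libraries were thus all above both adipose libraries and the tdTomato-negative cells. Gria2 (chromosome 3, 80681450 to 80804227), the subunit whose edited form makes AMPA receptors impermeable to calcium, had 0.325 CPM in adipose neurospheres, 0.141 in adipose primary cells, 10.1 in M2, 0.464 in tdTomato-positive spheroid cells, 56.9 in M1, 20.1 in bowel primary cells and 0 reads in tdTomato-negative cells. It was above 10 CPM in M2, M1 and bowel primary cells and under 0.5 CPM in the other 4 libraries.

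Gria3 (chromosome X, 41400819 to 41678601) had 10.7 CPM in adipose neurospheres, 31.5 in adipose primary cells, 73.0 in M2, 35.9 in tdTomato-positive spheroid cells, 103 in M1, 22.9 in bowel primary cells and 37.8 in tdTomato-negative cells. It was the most abundant of the 47 genes per kilobase in adipose primary cells (5.80 CPM per kilobase), M1 (18.9) and tdTomato-negative cells (6.96). Gria1 (chromosome 11, 57011571 to 57330244) had 10.4 CPM in adipose neurospheres, 0.609 in adipose primary cells, 3.77 in M2, 11.5 in tdTomato-positive spheroid cells, 6.78 in M1, 11.8 in bowel primary cells and 17.4 in tdTomato-negative cells. It was the AMPA gene with its highest value outside the tdTomato-positive cells.

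Of the 47 genes, 32 had a promoter window in the RefSeq table for GRCm38.p6. The 250 bases before the start of 3 of them are shown, with CG dinucleotides in capitals, as examples of different CpG content among genes whose levels differed in several comparisons: Gria4, Grm8 (a group III metabotropic receptor gene) and Gabra3 (the GABA-A α3 subunit gene). All 3 lie on the minus strand, at chr9:4796235-4796484, chr6:28135147-28135396 and chrX:72656920-72657169.
Gria4: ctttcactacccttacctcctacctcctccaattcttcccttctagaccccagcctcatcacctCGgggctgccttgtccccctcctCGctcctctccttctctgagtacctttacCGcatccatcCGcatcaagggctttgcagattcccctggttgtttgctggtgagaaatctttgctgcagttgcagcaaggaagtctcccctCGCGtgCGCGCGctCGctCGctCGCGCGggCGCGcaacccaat
Grm8: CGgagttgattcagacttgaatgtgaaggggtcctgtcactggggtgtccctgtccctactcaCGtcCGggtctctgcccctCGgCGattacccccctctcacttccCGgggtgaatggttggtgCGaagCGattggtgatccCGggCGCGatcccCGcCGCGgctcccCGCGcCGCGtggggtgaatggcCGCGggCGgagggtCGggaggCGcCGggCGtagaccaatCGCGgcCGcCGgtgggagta
Gabra3: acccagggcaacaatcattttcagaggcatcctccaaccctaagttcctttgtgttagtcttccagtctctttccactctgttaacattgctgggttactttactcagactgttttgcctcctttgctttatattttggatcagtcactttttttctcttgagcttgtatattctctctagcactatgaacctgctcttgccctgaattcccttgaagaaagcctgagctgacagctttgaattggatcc
The Gria4 window holds 16 CG dinucleotides, the Grm8 window 29 and the Gabra3 window 0. The 32 windows held 0 to 42, with the highest count at Grik3. The median was 10.5 over the 32 genes and 6 over the 27025 promoter windows in the table. GGGCGG, the GC box core, was found on either strand in 17 of 32 windows (53.1%), against 32.9% of all windows, and TATAAA on either strand in 3 of 32 (9.38%), against 13.0%. GGGCGG occurs 1 time in the Grm8 window and 0 times in the Gria4 and Gabra3 windows, and TATAAA 1 time in the Gabra3 window and 0 times in the other two. These matches describe the letters only, and the libraries hold no measurement at promoters.

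Among kainate receptor subunits, Grik2 had the highest values. Grik2 (Entrez 14806; chromosome 10, 49093680 to 49790161), which encodes the GluK2 subunit able to form channels by itself, had 6.93 CPM in adipose neurospheres, 38.4 in adipose primary cells, 153 in M2, 91.3 in tdTomato-positive spheroid cells, 161 in M1, 13.3 in bowel primary cells and 9.01 in tdTomato-negative cells. The 3 tdTomato-positive bowel cultures were all higher than every other library, and adipose neurospheres were the lowest. Grik2 was also the most abundant of the 47 genes per kilobase in M2 (14.8 CPM per kilobase) and in tdTomato-positive spheroid cells (8.80). Grik3 (chromosome 4, 125490259 to 125714173), another channel-forming subunit gene, had 7.32 CPM in adipose neurospheres, 16.1 in adipose primary cells, 60.0 in M2, 31.2 in tdTomato-positive spheroid cells, 24.7 in M1, 9.17 in bowel primary cells and 0.124 in tdTomato-negative cells. All 6 tdTomato-positive libraries were thus above 7 CPM.

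Grik1 (chromosome 16, 87895901 to 88290863), the GluK1 gene, had 1.51 CPM in adipose neurospheres, 0.843 in adipose primary cells, 1.16 in M2, 0.727 in tdTomato-positive spheroid cells, 20.9 in M1, 23.7 in bowel primary cells and 0.0618 in tdTomato-negative cells. It was high in M1 and bowel primary cells and under 2 CPM elsewhere, and it led the 47 genes per kilobase in bowel primary cells, at 5.62 CPM per kilobase. Grik4 and Grik5 encode the subunits that need a partner from Grik1 to Grik3 to form a channel. Grik5 lay between 5.78 CPM in adipose primary cells and 25.8 CPM in M1, and Grik4 between 0.666 CPM in adipose neurospheres and 9.89 CPM in M1.

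NMDA receptors need the glycine-binding subunit GluN1, encoded by Grin1. Grin1 (chromosome 2, 25291177 to 25319187) had 0.0974 CPM in adipose neurospheres, 0.0937 in adipose primary cells, 0.613 in M2, 0.217 in tdTomato-positive spheroid cells, 2.74 in M1, 3.42 in bowel primary cells and 0.649 in tdTomato-negative cells. Only M1 and bowel primary cells passed 1 CPM. Of the 47 genes, Grin1 was the 1 that shared over 10% of its exon bases with another gene, the antisense gene Grin1os, at 29.9%, and whether counting used strand is not given in the sources used, so the Grin1 counts are uncertain. Grin3a, a modulatory subunit gene, had 0.406 CPM in adipose neurospheres, 0 reads in adipose primary cells, 0.168 CPM in M2, 0.0619 in tdTomato-positive spheroid cells, 4.63 in M1, 2.83 in bowel primary cells and 0.0309 in tdTomato-negative cells. Grin2d ranged from 0.487 CPM in adipose neurospheres to 1.60 CPM in M1, and Grin3b from 0.141 CPM in adipose primary cells to 1.23 CPM in M1.

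Grm5 (Entrez 108071; chromosome 7, 87583981 to 88135063) encodes the group I metabotropic receptor mGlu5, which couples to phospholipase C. It had 0.146 CPM in adipose neurospheres, 0.750 in adipose primary cells, 11.2 in M2 (95% counting interval 10.38 to 12.02), 0.0155 in tdTomato-positive spheroid cells, 0.328 in M1, 0.104 in bowel primary cells and 0.0618 in tdTomato-negative cells. It stood above 1 CPM in M2 alone. The group III receptor genes Grm7 and Grm8, whose products lower cyclic AMP and sit at presynaptic terminals in the brain, had another order. Grm7 (chromosome 6, 110645349 to 111567230) had 0 reads in adipose neurospheres, 0.172 CPM in adipose primary cells, 0.429 in M2, 1.22 in tdTomato-positive spheroid cells, 2.87 in M1, 16.8 in bowel primary cells and 11.5 in tdTomato-negative cells. Grm8 (chromosome 6, 27275121 to 28135146) had 0.617 CPM in adipose neurospheres, 0.0937 in adipose primary cells, 4.87 in M2, 1.66 in tdTomato-positive spheroid cells, 1.503 in M1, 4.91 in bowel primary cells and 4.28 in tdTomato-negative cells. Grm7 was highest in bowel primary cells and next in the tdTomato-negative cells, and Grm8 was within 4.28 to 4.91 CPM in those 2 libraries and M2.

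Most GABA-A subunit genes lie in chromosomal groups. On chromosome 7, Gabra5 (57407669 to 57591016), the α5 subunit gene, had 2.03 CPM in adipose neurospheres, 0.0306 in M2, 0.104 in bowel primary cells and 0 reads in the other 4 libraries. Adipose neurospheres were thus the library where it passed 1 CPM. Of the 47 genes, 15 share exon bases with another gene, and their counts are uncertain to that extent. Gabrg3, the γ3 gene on the same chromosome, had 0.227 CPM in adipose neurospheres, 0 reads in adipose primary cells, 1.26 CPM in M2, 0.201 in tdTomato-positive spheroid cells, 4.51 in M1, 2.60 in bowel primary cells and 0.216 in tdTomato-negative cells.

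On chromosome X, Gabra3 (72432676 to 72656919), the α3 gene, had 0 reads in adipose neurospheres, 10.4 CPM in adipose primary cells, 0.0919 in M2, 0 reads in tdTomato-positive spheroid cells, 0.809 CPM in M1, 6.97 in bowel primary cells and 0.773 in tdTomato-negative cells. Both primary libraries were above every culture, and in adipose primary cells Gabra3 made up 60.5% of the summed GABA-A level per kilobase. Gabre, the ε gene, had 2.47 CPM in tdTomato-negative cells and 1.23 CPM in M1, with under 1 CPM elsewhere.

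On chromosome 11, Gabrb2 (42419515 to 42632591), the β2 gene, had 0.844 CPM in adipose neurospheres, 0.890 in adipose primary cells, 3.29 in M2, 0.186 in tdTomato-positive spheroid cells, 20.0 in M1, 0.624 in bowel primary cells and 0.0928 in tdTomato-negative cells. It was highest in M1, next in M2, and under 1 CPM in the other 5 libraries. In the chromosome 5 group, Gabra4 reached 2.01 CPM and Gabrb1 1.25 CPM, both in bowel primary cells, and neither reached 1 CPM in another library.

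Gabbr1, which encodes the GABA-binding GABA-B1 subunit, had 7.53 CPM in adipose neurospheres, 8.11 in adipose primary cells, 18.8 in M2, 24.1 in tdTomato-positive spheroid cells, 42.4 in M1, 22.9 in bowel primary cells and 22.6 in tdTomato-negative cells. The 5 bowel libraries were all above both adipose libraries. Gabbr2, whose product a working GABA-B receptor needs for surface delivery and G protein coupling, lay between 0 reads and 0.988 CPM.

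The first question was how fresh neural crest-derived cells of fat differ from those of the bowel. Of the 22 genes measured, 13 were lower in adipose primary than in bowel primary cells and 0 were higher, where 11.4% of all 15585 measured genes were lower and 7.09% higher (18.5% in either direction). The members' median log2 ratio was -4.50, against 0.09 over all measured genes. However, 12 of the 22 reached 1 CPM in bowel primary cells only and these 12 were all called, so the count has to be read with that. Among the 10 that reached 1 CPM in both, 1 was called, Gria4, at a log2 ratio of -3.18 (-3.54 to -2.89).

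Across families, Gria2 was lower by a log2 ratio of -6.87 (-8.31 to -6.25), Grm7 by -6.38 (-7.64 to -5.78), Grm8 by -5.30 (-7.19 to -4.59), Grin1 by -4.78 (-6.67 to -4.06), Grik1 by -4.78 (-5.25 to -4.44) and Gria1 by -4.22 (-4.80 to -3.83). Against 0 reads in adipose primary cells, Grin3a was at least 61.1-fold lower, Gabrg3 at least 56.2-fold, Gabra4 at least 43.5-fold and Gabrb1 at least 27.0-fold. Genes called in neither direction included Grik2 (1.51), Grik3 (0.79), Gria3 (0.44), Gabra3 (0.56), Grik5 (-0.62), Gabbr1 (-1.51) and Grik4 (-1.87). The neuronal markers moved with these genes: 12 of 12 were lower in adipose primary cells, with a median log2 ratio of -6.72 and sums of 97.5 CPM in adipose primary and 2074 CPM in bowel primary cells, and 1 of 12 was at 0 in adipose primary cells. Smooth muscle and acinar markers also differed, with sums of 302 CPM and 2.87 CPM in adipose primary cells, against 24363 CPM and 4.907% of reads in bowel primary cells. Other lists had larger sums in adipose primary cells. Myelin markers summed to 4943 CPM there against 840 CPM in bowel primary cells, and lymphocyte markers to 491 against 90.8 CPM. Fibroblast markers summed to 12052 against 5296 CPM, with 3 of 7 higher and 0 lower in adipose primary cells. The part of other cells in the result was not tested.

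In culture, adipose neurospheres were set against M2 neurospheres, both grown for 10 and 10 days. Of 17 genes measured, 1 was higher and 9 were lower in adipose neurospheres, where 5.33% and 8.71% of all 13440 measured genes were higher and lower (14.0% in either direction). The median log2 ratio was -2.20, against -0.01 over all genes. Of the 7 genes at 1 CPM in M2 only, 5 were called lower, and the 1 in adipose neurospheres only was called higher. The counts and the median have to be read with that. Among the 9 genes at 1 CPM in both libraries, 4 were lower: Gria4 at -5.28 (-5.635 to -4.997), Grik2 at -4.34 (-4.49 to -4.21), Grik3 at -2.91 and Gria3 at -2.65. Of the others, Grm5 had a log2 ratio of -5.87 (-7.27 to -5.20), Gria2 -4.71 (-5.55 to -4.19), Grik4 -3.06, Grm8 -2.80 and Gabrg3 -2.20. Gabra5 was the gene called higher, at 5.14 (4.29 to 9.23) with 2 reads in M2, while Gria1 (1.58) was called in neither direction.

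With another bowel library some calls ended. Against M1, Grik3 (-1.45) and Grm8 (-0.96) were not called, and against tdTomato-positive spheroid cells Gria3 (-1.74) and Grm8 (-1.37) were not. Grm5 had 0.146 CPM in adipose neurospheres and 0.328 CPM in M1, both under 1 CPM, so it was not measured against M1. Gria2, Grm5 and Gabrg3 were under 1 CPM in both adipose neurospheres and the spheroid cells, so none of them was measured there. Gria2 had 0.325 CPM in adipose neurospheres and 0.464 CPM in the spheroid cells, and the log2 ratios of Grm5 and Gabrg3 were 1.92 and 0.16. In all, 6 genes were called against the spheroid cells, and 5 calls were the same as against M2. Of the 10 measured neuronal markers, 6 were lower and 1 was higher in adipose neurospheres than in M2, with a median log2 ratio of -3.37; their sums were 842 CPM in adipose neurospheres and 3760 CPM in M2, or 722 and 843 CPM without Gap43, and 1 of 12 was at 0 in adipose neurospheres. Their part in the result was not tested.

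The culture of adipose cells was examined by setting adipose neurospheres against adipose primary cells. Of 14 genes measured, 3 were higher and 3 were lower in neurospheres, where 5.71% and 20.8% of all 14773 measured genes were higher and lower (26.5% in either direction), and the median log2 ratio was -0.76, against -0.01. Among them, Gabra5 was at least 39.1-fold higher in neurospheres, and Gria1 had a log2 ratio of 3.89 (3.49 to 4.46). Gabra3 was at least 237-fold lower and Grik2 had a log2 ratio of -2.61 (-2.77 to -2.47). The GABA-A genes called thus differed in direction: the α5 gene was higher in neurospheres and the α3 gene was lower. Of the 6 genes at 1 CPM in both libraries, Grik2 was the 1 called. Of the 4 genes at 1 CPM in neurospheres only, 3 were called, and of the 4 in adipose primary cells only, 2 were called. Myelin markers summed to 50.5 CPM in adipose neurospheres, with 7 of 8 at 1 CPM, and to 4943 CPM in adipose primary cells, with 8 of 8. Macrophage markers summed to 26.1 CPM in adipose neurospheres and 1586 CPM in adipose primary cells, and the neuronal list had 2 of 5 measured genes higher and 0 lower. Their part was not tested.

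Culture of bowel cells was examined with 3 libraries over the same bowel primary cells. In M1 neurospheres, 4 of 26 measured genes were higher and 5 lower, where 6.58% and 16.3% of all 15422 measured genes were higher and lower (22.9% in either direction). The median log2 ratio was 0.20, against -0.07. Gabrb2 was higher by 4.48 (4.07 to 5.07), Grik2 by 3.14, Gabre by 2.78 (1.91 to 4.61) and Gria4 by 2.68 (2.57 to 2.79) on the log2 scale. Gabra3 had a log2 ratio of -3.50, Grm7 -2.99 (-3.27 to -2.76), Grm8 -2.13 and Gabrb1 -2.04. Among the 19 genes at 1 CPM in both libraries, 2 were higher and 3 lower. Of the 4 genes at 1 CPM in M1 only, 2 were called, and of the 3 in bowel primary cells only, 2 were called. With scaling by total counts, 5 genes were higher and 2 lower, and Grm8 and Gabrb1 were among those no longer called, at log2 ratios of -1.68 and -1.61.

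In M2 neurospheres, 4 of 25 measured genes were higher and 10 lower than in bowel primary cells, where 5.89% and 21.0% of all 15189 measured genes were higher and lower (26.9% in either direction), and the median log2 ratio was -1.28, against -0.07. Grm5 was higher by 6.11 (5.33 to 7.91), Grik2 by 3.24 (3.14 to 3.35), Grik3 by 2.42 and Gabrb2 by 2.06 (1.60 to 2.67) on the log2 scale. Lower in M2 were, among others, Gabra3 (-6.07), Grm7 (-5.47), Gabrb1 (-4.94, interval -11.96 to -4.11, with 1 read in M2), Grik1 (-4.60), Grin3a (-4.09), Grin1 (-2.70) and Gabra4 (-2.68). Of the 10 lower genes, 9 had reached 1 CPM in bowel primary cells only. Gria4 (1.94) and Gria1 (-1.92) lay just inside the 4-fold limit.

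In tdTomato-positive spheroid cells, sorted after the first 10 days, 1 of 23 measured genes was higher and 12 were lower than in bowel primary cells, where 6.57% and 20.4% of all 15232 measured genes were higher and lower (27.0% in either direction), and the median log2 ratio was -2.52, against -0.03. Grik2 was the gene called higher, at 2.61. Gabra3 was at least 169-fold lower and Gabrb1 at least 30.3-fold lower. Gria2 (-5.51), Grik1 (-5.14), Grin3a (-5.06), Grin1 (-3.95), Grm7 (-3.92), Gabra4 (-3.86) and Gabrg3 (-3.65) were lower as well, and 11 of the 12 had reached 1 CPM in bowel primary cells only.

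Neuronal markers were lower in these cultures than in bowel primary cells in 5 of 12 measured for M1 (0 higher, median log2 ratio -0.79), 6 of 12 for M2 (1 higher, -1.98) and 8 of 12 for tdTomato-positive spheroid cells (1 higher, -4.45), with none of the 12 at 0 in any of the 4 libraries. Their sums were 3760 CPM in M2, 3798 CPM in tdTomato-positive spheroid cells and 1821 CPM in M1, against 2074 CPM in bowel primary cells. Without Gap43, which had 2917 CPM in M2 and 3094 CPM in the spheroid cells, against 212 CPM in bowel primary cells, all 3 cultures were lower, at 843, 704 and 1040.03 CPM, against 1862 CPM. The glial list summed to 5665 CPM in M2, 6034 CPM in tdTomato-positive spheroid cells and 3262 CPM in M1, against 1480 CPM in bowel primary cells, with all 11 at 1 CPM. Smooth muscle markers summed to 20.9 to 82.3 CPM in the 3 cultures, against 24363 CPM in bowel primary cells, and macrophage markers to 27.0 CPM in M2, 33.2 CPM in tdTomato-positive spheroid cells and 1330 CPM in M1, against 3943 CPM. The part of these cells in the results was not tested.

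**Figure D3:**
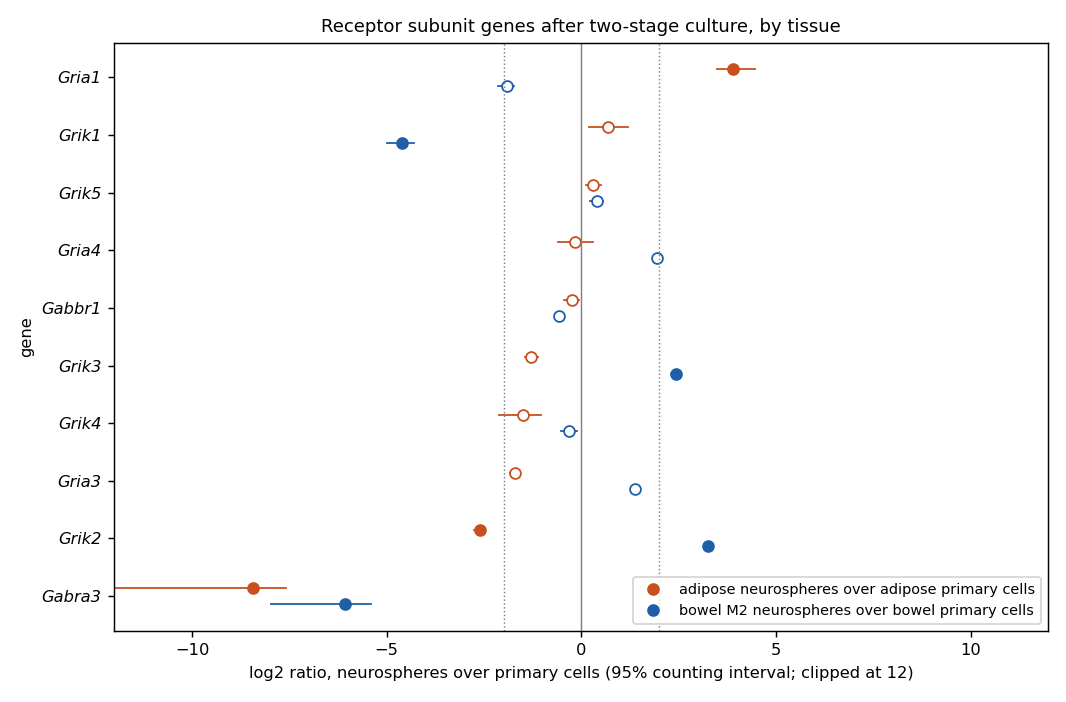
Log2 ratio of neurospheres over primary cells (horizontal axis, 95% counting interval as a line) for 10 subunit genes measured in both tissues (rows), with adipose cells in orange and bowel cells (M2) in blue, 1 library per group. Filled points were called higher or lower, the dotted lines mark 4-fold, and intervals past 12 are clipped; Grik2 lies at -2.61 in adipose and 3.24 in bowel cells, and Gria1 at 3.89 in adipose cells.

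The 2 bowel methods were then set against each other. In M2 neurospheres 1 of 24 measured genes was higher and 8 were lower than in M1, where 1.2% and 7.37% of all 14141 measured genes were higher and lower (8.57% in either direction), and the median log2 ratio was -1.22, against -0.08. Grm5 had a log2 ratio of 5.12 (4.58 to 6.05). Grin3a (-4.36), Grik1 (-3.96), Grm7 (-2.48), Gabrb2 (-2.42) and Gria2 (-2.32) were among those lower in M2. Grik1, Gabrb2 and Gria2 were the 3 called among the 15 genes at 1 CPM in both libraries. Of the 8 genes at 1 CPM in M1 only, 5 were called lower, and the 1 in M2 only was called higher. The counts and the median have to be read with that. Markers of several other cell types were lower in M2: 4 of 5 measured macrophage markers (sums of 27.0 CPM in M2 and 1330 CPM in M1), 5 of 5 mesothelial markers (0.260 CPM in M2 and 75.3 CPM in M1, with 1 at 0 in M2), 6 of 7 fibroblast markers (751 CPM in M2 and 1891 CPM in M1), 3 of 6 smooth muscle markers (20.9 CPM in M2 and 82.3 CPM in M1) and 3 of 5 markers of interstitial cells of Cajal, the gut's pacemaker cells (229 CPM in M2 and 418 CPM in M1). In the neuronal list, 3 of 11 measured markers were lower in M2 and 1 was higher. The part of these cells was not tested.

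The second 10 days of the M2 route were examined by setting M2 neurospheres against the tdTomato-positive spheroid cells. Of 17 measured genes 4 were higher in M2 and 0 were lower, where 3.07% and 3.86% of all 13432 measured genes were higher and lower (6.94% in either direction), and the median log2 ratio was 0.63, against -0.02. Grm5, with 1 read in the spheroid cells, had a log2 ratio of 7.85 (6.90 to 14.69), Gria2 4.24 (3.80 to 4.90), Gabrb2 3.84 (3.20 to 5.01) and Gabrg3 2.37 (1.68 to 3.50). All 4 reached 1 CPM in M2 only. Of the 10 measured neuronal markers 3 were higher in M2 and 0 lower, with a median log2 ratio of 1.30, while the list's sum was 3760 CPM in M2 and 3798 CPM in the spheroid cells, or 843 and 704 CPM without Gap43. Fibroblast markers were lower in 5 of 7, with sums of 751 CPM in M2 and 4806 CPM in the spheroid cells. Of these sums, the single gene Fn1 made up 581 CPM in M2 and 4266 CPM in the spheroid cells. The part of the cells that these lists mark was not tested.

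Sorting the mixed spheroids separated tdTomato-positive from tdTomato-negative cells of 1 culture. Of 13 measured genes 3 were higher and 2 lower in the positive cells, where 6.64% and 12.5% of all 13951 measured genes were higher and lower (19.1% in either direction), and the median log2 ratio was -0.32, against 0.01. Grik3 had a log2 ratio of 7.44 (6.76 to 8.95), Gria4 4.01 (3.68 to 4.44) and Grik2 3.09 (2.98 to 3.22). Grm7 had -3.44 (-3.83 to -3.14) and Gabre -3.97 (-5.33 to -3.32). Among the 10 genes at 1 CPM in both libraries, 2 were called, Grik2 and Grm7. The 2 at 1 CPM in positive cells only and the 1 in negative cells only were all called, so the counts have to be read with that. Grik5 (1.13), Gabbr1 (-0.15), Gria3 (-0.32), Grin2d (-0.34), Grik4 (-0.48), Gria1 (-0.84) and Grm8 (-1.59) were among those called in neither direction. Neuronal markers were higher in 8 of 9 measured and lower in 1, with 3 of 12 at 0 in the negative cells; fibroblast markers summed to 4806 CPM in positive and 46562 CPM in negative cells, and markers of interstitial cells of Cajal to 101 CPM in positive and 4102 CPM in negative cells. The single gene Fn1 made up 4266 and 22972 CPM of the fibroblast sums, and Thbs4 29.1 and 3939 CPM of the interstitial cell sums, in positive and negative cells. The part of these cells in the result was not tested.

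Genes whose products work with these receptors were listed separately by role. Of 18 glutamate receptor auxiliary subunit genes found in the table, 11 were measured between the primary libraries and 7 were lower in adipose than in bowel primary cells, with 0 higher, beside 11.4% lower and 7.09% higher among all genes. All 11 reached 1 CPM in bowel primary cells, and 6 did in adipose primary cells, so the count has to be read with that. Frrs1l, which assists AMPA receptor assembly, had 0.0781 CPM in adipose primary and 10.0 CPM in bowel primary cells (log2 ratio -6.52), and the AMPA auxiliary gene Cnih2 had 1.11 and 24.6 CPM in those libraries (-4.45). In the bowel cultures Frrs1l, Gsg1l and Cacng5, all genes of AMPA auxiliary proteins, were lower than in primary cells, for example Gsg1l at 0.505 CPM in M2 and 9.64 CPM in bowel primary cells (-4.45). Neto2, the auxiliary subunit of kainate receptors, had 120 CPM in M2 and 133 CPM in M1, against 16.4 CPM in bowel primary cells (2.59 and 2.56), and was the 1 auxiliary gene higher in each of those comparisons. In adipose neurospheres Cnih2 had 54.7 CPM, against 1.11 CPM in adipose primary cells (5.44).

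Of 23 glutamate synapse scaffold and adhesion genes, 21 were measured between the primary libraries, with 1 higher and 9 lower in adipose cells, beside the same shares of all genes. All 21 reached 1 CPM in bowel primary cells, and 12 did in adipose primary cells. Cbln2, a secreted synapse organiser, had 0.0919 CPM in M2 and 34.4 CPM in bowel primary cells (-8.36), and 9 of 21 measured scaffold genes were lower in M2, with 0 higher, beside 21.0% lower and 5.89% higher among all genes. All 21 again reached 1 CPM in bowel primary cells, and 13 did in M2. The adipose culture differed in both directions, with 6 of 14 higher and 5 lower in neurospheres, beside 5.71% higher and 20.8% lower among all genes. Dlg3, the gene of the scaffold protein SAP102, had 123.4 CPM in adipose neurospheres and 13.7 CPM in adipose primary cells (3.02), Homer3, which binds group I metabotropic receptors, 44.0 and 4.72 CPM (3.07), and the adhesion gene Nlgn3 0.130 and 177 CPM (-10.23). Of 14 GABA receptor scaffold and auxiliary genes, 0 were higher and 3 of 12 measured lower in adipose primary than in bowel primary cells, beside 7.09% higher and 11.4% lower among all genes. All 12 reached 1 CPM in bowel primary cells, and 9 did in adipose primary cells. Lhfpl4, an auxiliary subunit that holds GABA-A receptors at synapses, had 0.203 CPM in adipose primary and 15.6 CPM in bowel primary cells (-6.07).

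Among 14 genes of glutamate synthesis and transport, 1 was higher and 3 of 9 measured were lower in adipose neurospheres than in adipose primary cells, beside 5.71% and 20.8% of all genes. Slc17a8, the vesicular glutamate transporter VGLUT3, had 10.5 CPM in adipose neurospheres and 0 reads in adipose primary cells. In the spheroid sort 5 of 10 measured genes were lower and 0 higher in positive cells, beside 12.5% lower and 6.64% higher among all genes. All 10 reached 1 CPM in negative cells, and 7 did in positive cells. The glutamate uptake transporter gene Slc1a3 had 1.19 CPM in positive and 81.9 CPM in negative cells (-6.31), and the vesicular transporter gene Slc17a6 0.0619 and 9.54 CPM (-6.89). Of 11 genes of GABA synthesis and transport, Gad2, which encodes a GABA-synthesising glutamate decarboxylase, had 40.3 CPM in adipose neurospheres and 0.0312 CPM in adipose primary cells (log2 ratio 9.21, interval 8.33 to 13.23). It also had 0.827 CPM in M2, a log2 ratio of 5.67 for adipose neurospheres over M2, and 18.0 CPM in tdTomato-positive against 0.387 CPM in tdTomato-negative spheroid cells (5.20). In the spheroid sort Gad2 was the 1 of 7 measured genes of this list called higher, beside 6.64% of all genes. The list had 4 lower there, among them Maob (-3.11) and Slc6a12 (-2.98), beside 12.5% of all genes. Gad1, which also encodes a glutamate decarboxylase, was another of the 4. It had 0.0310 CPM in positive and 2.95 CPM in negative cells (-5.77, interval -9.87 to -4.95), so the decarboxylase genes Gad1 and Gad2 differed in direction. For adipose neurospheres over M2, 1 of 5 measured genes was higher and 2 were lower, beside 5.33% and 8.71% of all genes. Over the whole list, 1 of 8 measured genes was higher and 3 were lower in adipose neurospheres than in adipose primary cells, again beside 5.71% and 20.8% of all genes. Of the 4 chloride cotransporter genes, which set the direction of GABA-A currents, 0 were called between the primary libraries or in adipose culture. In the spheroid sort 2 of the 4 were lower and 0 higher in positive cells, beside 12.5% lower and 6.64% higher among all genes. Slc12a5, the neuronal chloride exporter KCC2, had 0.975 CPM in positive and 12.4 CPM in negative spheroid cells (-3.86), and Slc12a2 had 11.9 and 44.8 CPM (-2.14).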

How the data were processed

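RNA of 7 libraries was amplified as full-length cDNA (SMART-Seq v4) and prepared with Nextera XT, per the labels' protocols. The deposited values are CPM per Entrez gene, made by the authors; reads were processed with HISAT, featureCounts and bcl2fastq 2.17 against mm10, per the submitters' processing notes, and annotation, strand setting and other versions are not given in the sources used. All CPM values (100%) were whole reads within 0.05 read, so reads were recovered (51885106 to 65301500 per library). With 1 library per group there are no residual degrees of freedom, so no count test could be run on them.

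Symbols came from RefSeq by Entrez identifier (25275 of 27179 matched), and exon lengths from GENCODE basic transcripts. TMM factors were computed over 16461 genes (edgeR 4.0.16, R 4.3.3). Log2 ratios used a prior count of 2, which understates ratios of low genes. Intervals are 95% exact conditional binomial for ratios and exact Poisson for CPM. Ratios against 0 reads are bounds from 3 reads per library, and genes with 1 to 3 reads have a ratio with its interval. In simulated reads for the spheroid sort (13513 genes measured), 50 of 50 genes raised and 50 of 50 lowered 8-fold were called, with 0 of 50 at 3-fold in each direction and 0 of 13313 unchanged genes. The changed genes were drawn from those with a mean of at least 2 CPM, so changes in lower genes were not covered. The simulation held counting noise only and says nothing of variation between libraries. Alternatives were DESeq2 1.42.0 or total-count scaling, no filter or 5 CPM, a prior count of 0.5, a 2-fold rule, acinar genes left out of totals, and another bowel library.

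The subunit genes and the 19 gene lists were chosen with earlier results of these data known. Every subunit gene enters the counts, but some are not reported here by name. Partner genes were named where called with 5 CPM or more in the higher library, from at most the 4 with the largest ratios per list and comparison. Gad1, under 5 CPM, was named besides, to stand beside Gad2. Plots used matplotlib 3.10.9, and intervals and tables scipy 1.17.1, pandas 2.3.3 and numpy 2.4.6 under Python 3.11.15.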

Additional observations from a re-analysis of the deposited data

Results flagged for a closer look

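Grik2, the GluK2 kainate subunit gene, differed in opposite directions between neurospheres and primary cells in the 2 tissues. Its log2 ratio was -2.61 in adipose cells, with 6.93 CPM in adipose neurospheres and 38.4 CPM in adipose primary cells. It was 3.24 in bowel cells grown by the same 2-stage route, with 153 CPM in M2 neurospheres and 13.3 CPM in bowel primary cells. The difference between the tissues was not tested, since each group is 1 library.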

How the results depend on the processing

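With 1 library per group, counting error is the only error that could be given. No paired analysis was possible because each group has 1 library. The numbers of subunit genes called moved most with the filter and the fold limit. Without a filter on low values, 13 genes were called in the spheroid sort (5 in the report), 22 between the primary libraries (13), 17 in adipose culture (6), 16 in M1 culture (9), 22 in M2 culture (14), 15 between the bowel methods (9) and 8 in the second stage (4). With a filter at 5 CPM the counts were 7 between the primary libraries, 7 in M2 culture, 6 for the tdTomato-positive spheroid cells over bowel primary cells (13 in the report), 4 between the methods and 2 in the second stage. With a 2-fold limit they were 8 in the spheroid sort, 10 in adipose culture, 15 in M1 culture, 15 between the methods and 8 in the second stage.

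With tdTomato-positive spheroid cells in place of M2, 6 genes were called between adipose and bowel cultures, against 10 with M2. Only 5 calls were the same as with M2. Gria2, Grm5 and Gabrg3 were under 1 CPM in both libraries and so not measured, and the log2 ratios of Grm5 (1.92) and Gabrg3 (0.16) had the other sign. Of the 83 calls of single genes, 79 held with total-count scaling, 83 with DESeq2 scaling and 83 with a prior count of 0.5, and 48 of 49 held with acinar genes left out of the totals. With the 5 CPM filter 36 of the 83 were no longer measured; no filter and a 2-fold limit cannot end a call. Among calls that ended, Grik3 (-1.45) and Grm8 (-0.96) did so with M1 as the bowel library, Grm8 (-1.37) and Gria3 (-1.74) with the spheroid cells, and Gabrb2 (1.99) in M2 culture with acinar genes left out of the totals; the cause was not tested. Total-count scaling shifted the median log2 ratio of all genes by 0.46 in M1 culture and 0.29 in M2 culture, and DESeq2 scaling by less than 0.05 in each comparison.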
